A study of Rattus norvegicus with 16 samples.

Results

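The TGF-beta and BMP genes are 45 rat genes that encode the ligands, receptors, secreted antagonists, SMAD proteins and a few target genes of the transforming growth factor beta (TGF-beta) family. They were chosen by name, with earlier results of these data known. Each was read from the probe set that the array annotation pairs with that symbol alone. Of the 45 genes 43 had such a probe set, 1 for each gene, among 36685 probe sets in all, and Tgfbr2 and Gdf5 were not analysed here. The genes were measured in knee tissue of male Wistar rats on Affymetrix Rat Gene 2.0 ST microarrays, with 4 arrays per group and 16 in all. A single injection of 3 mg of monosodium iodoacetate (MIA), an inhibitor of glycolysis that kills chondrocytes and gives osteoarthritis-like lesions, had been made into the right knee, and the animals were killed 2, 14 or 28 days later. The MIA day 2, MIA day 14 and MIA day 28 groups were compared with intact animals, which had received no injection (day 0), and no saline-injected animals were part of the arrays, so MIA and the injection itself cannot be told apart. The age of the animals was not given in the sources used here. A sample was made up of meniscus and of articular cartilage from tibia and femur, with some joint capsule and bone, and the RNA of 2 animals was pooled for each array. Signals are log2 values, so a difference of 1 is a 2-fold change.

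TGF-beta family ligands are secreted dimers that bind pairs of type I and type II receptor kinases. TGF-betas and activins signal mainly through SMAD2 and SMAD3, and bone morphogenetic proteins (BMPs) through SMAD1, SMAD5 and SMAD9. Secreted proteins such as follistatin, noggin, chordin and gremlin hold ligands away from their receptors, and SMAD6 and SMAD7 inhibit the signal inside the cell. In the joint, TGF-beta is known for keeping articular cartilage and for fibrosis of the synovium, and BMPs for cartilage formation and endochondral bone growth. In what follows 13 measured genes are counted with the TGF-beta/activin branch, 23 with the BMP branch, and 7 with both or neither.

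On day 2 after MIA 21 genes of the family were lower than in intact animals. Among them were 13 of the 23 BMP genes and 6 of the 13 TGF-beta/activin genes. By day 28 several TGF-beta and activin genes were higher while 3 BMP ligands and 3 BMP antagonists were still lower. Of the 43 genes 4 were higher on day 2 (9.3%) and 21 were lower (48.8%) at an adjusted p under 0.05 (limma, Benjamini-Hochberg over all probe sets), against 14.7% higher and 11.2% lower of all 36685 probe sets. On day 14, 6 were higher and 11 were lower, against 9.13% and 6.01% of all probe sets. After centring of the arrays on their medians 8 of the 43 genes were higher and 9 lower, with the shares of all probe sets not counted. On day 28, 9 were higher and 9 were lower, against 7.76% and 6.45%. The median difference of the 43 genes was -0.36 on day 2, -0.06 on day 14 and 0.02 on day 28, beside -0.05, -0.03 and 0.01 over all probe sets. The arrays of the 2 groups did not overlap in the higher direction for 4 genes on day 2, 6 on day 14 and 8 on day 28 (15.2%, 11.2% and 10.2% of all probe sets), and in the lower direction for 20, 9 and 9 genes (11.8%, 7.23% and 8.04%). By the moderated F-test over the 3 days, 27 of the 43 passed, against 31% of all probe sets. In such bulk samples fewer cells of a type and less RNA per cell cannot be told apart.

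**Figure D1:**
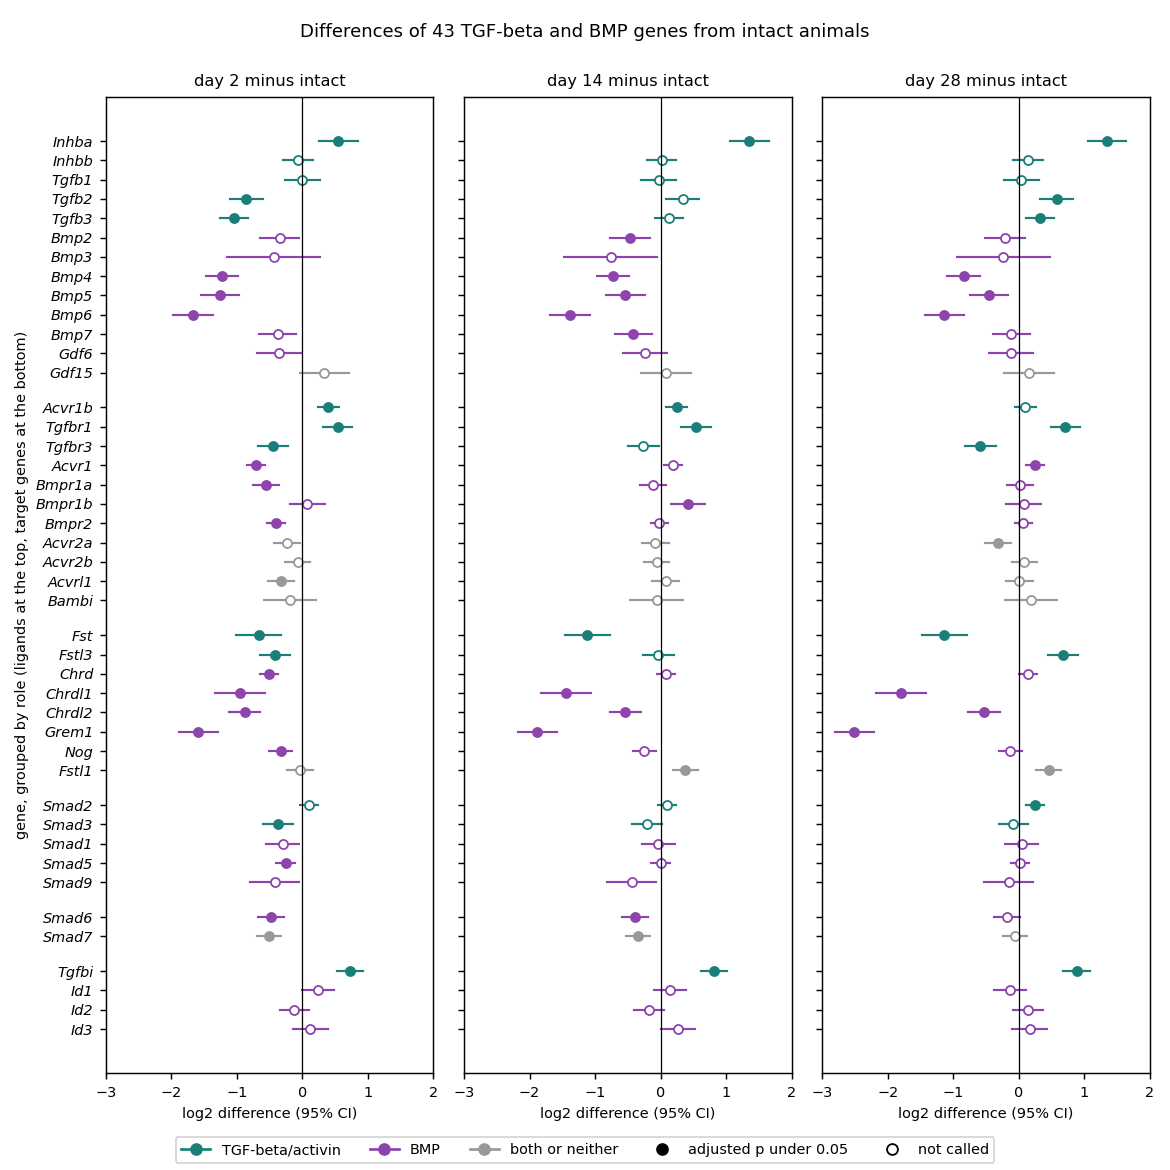
Log2 difference (horizontal axis) of each of the 43 measured genes at MIA days 2, 14 and 28 from intact animals, with the 95% confidence interval, ordered by role and coloured by branch, where filled points passed an adjusted p of 0.05. No BMP gene (purple) passed on the higher side on day 2, and Inhba and Tgfbi (green) stood on the higher side on each day.

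The stretch before the transcription start is shown for genes with the largest changes of their kind among the 43: Inhba, the ligand that rose most, Tgfb3, which fell only on day 2, Bmp6, the ligand that fell most, and Grem1, the antagonist that fell most. Each is the 250 bases before the start, 5′ to 3′ on the gene's strand, from RefSeq on GRCr8, and all 4 genes lie on the minus strand. Inhba lies at chr17:53804509-53804758, Tgfb3 at chr6:111456947-111457196, Bmp6 at chr17:26675262-26675511 and Grem1 at chr3:120978320-120978569. Capitals mark a TATA box (TATAAA, in Inhba) or the GC-rich SMAD motif (GGCGCC, in Grem1).
Inhba: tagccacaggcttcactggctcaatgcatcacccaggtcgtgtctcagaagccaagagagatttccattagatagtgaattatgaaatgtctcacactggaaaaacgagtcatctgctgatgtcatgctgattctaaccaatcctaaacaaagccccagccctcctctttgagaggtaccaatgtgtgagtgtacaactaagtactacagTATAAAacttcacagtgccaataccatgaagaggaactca
Tgfb3: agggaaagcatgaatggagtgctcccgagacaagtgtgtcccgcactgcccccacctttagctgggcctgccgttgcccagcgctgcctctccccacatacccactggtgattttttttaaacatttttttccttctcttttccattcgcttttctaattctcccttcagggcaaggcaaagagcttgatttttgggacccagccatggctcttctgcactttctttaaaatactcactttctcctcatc
Bmp6: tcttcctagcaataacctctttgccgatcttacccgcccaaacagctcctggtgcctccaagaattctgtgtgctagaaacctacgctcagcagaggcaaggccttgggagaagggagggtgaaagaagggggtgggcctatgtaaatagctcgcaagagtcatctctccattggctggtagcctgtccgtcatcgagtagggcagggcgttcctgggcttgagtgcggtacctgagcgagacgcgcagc
Grem1: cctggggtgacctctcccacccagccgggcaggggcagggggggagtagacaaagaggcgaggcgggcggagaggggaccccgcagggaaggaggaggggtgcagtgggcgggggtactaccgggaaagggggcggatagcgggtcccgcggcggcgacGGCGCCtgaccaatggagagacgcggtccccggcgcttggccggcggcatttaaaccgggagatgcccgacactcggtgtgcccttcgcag
A promoter sequence was found for 34 of the 43 genes. Searched on both strands, GGCGCC occurred in 12 of the 34, against 9.24% of 27457 promoters of the same length, and TATAAA in 4 (Inhba, Fstl3, Bmpr1a and Id1), against 13.1%. The core of the CAGA box bound by SMAD3 (CAGAC) occurred in 4 of the 34, against 42.8% of all promoters, and the AP-1 motif TGANTCA in 1 (Bmpr1a), against 6.36%. The median GC content was 65.2% in the 34 promoters and 52.0% over all promoters. These matches describe letters in the window and do not show that a factor binds there.

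Tgfb2 and Tgfb3 were lower on day 2 and not later, the groups of Tgfb1 overlapped, and the activin subunit gene Inhba was higher on each day. Tgfb1, the most studied TGF-beta of the joint, gave log2 signals of 11.47, 11.49, 11.11 and 11.23 in intact animals, 11.39, 11.34, 11.20 and 11.36 on day 2, 11.62, 11.21, 10.98 and 11.36 on day 14 and 11.38, 11.45, 11.40 and 11.21 on day 28. All 4 groups overlapped. Its difference from intact was 0.00 on day 2 (95% confidence interval -0.26 to 0.26), -0.03 on day 14 (-0.29 to 0.23) and 0.04 on day 28 (-0.22 to 0.30), so a change of more than 0.30 in either direction lies outside each interval. Tgfb2 gave 9.22, 9.67, 9.58 and 9.56 in intact animals, 8.77, 8.63, 8.81 and 8.40 on day 2, 9.93, 9.90, 9.67 and 9.89 on day 14 and 10.10, 10.29, 10.01 and 9.96 on day 28. The day 2 arrays lay below, and the day 28 arrays above, each intact array. Tgfb2 fell by 0.86 ± 0.12 (SE) on day 2, 1.81-fold lower than in intact animals (adjusted p = 7.2e-05), and was higher by 0.58 ± 0.12 on day 28 (1.49-fold, adjusted p = 0.0038). The difference of 0.34 ± 0.12 on day 14 did not pass (adjusted p = 0.067).

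Tgfb3, known for palate closure in mice, was low on day 2 alone. Its signals were 9.94, 10.01, 10.13 and 9.83 in intact animals, 9.00, 8.88, 9.01 and 8.82 on day 2, 10.09, 10.22, 10.09 and 10.00 on day 14 and 10.33, 10.10, 10.20 and 10.55 on day 28. Each day 2 array lay well below the intact arrays, while those of days 14 and 28 overlapped them. Tgfb3 was 2.07-fold lower on day 2 (-1.05 ± 0.10, adjusted p = 2.8e-06), and its difference was 0.12 ± 0.10 on day 14 (adjusted p = 0.46). The 0.32 ± 0.10 on day 28 passed narrowly (adjusted p = 0.044). Without any of 12 of the 16 arrays that call was lost (adjusted p up to 0.14), the 4 whose removal kept it being replicate 4 of day 2, replicate 2 of day 14, replicate 2 of day 28 and replicate 3 of the intact group.

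Inhba encodes the subunit of activin A. Its signals were 10.50, 10.39, 10.30 and 10.16 in intact animals, 10.95, 10.96, 10.85 and 10.79 on day 2, 11.97, 11.43, 11.42 and 11.96 on day 14 and 11.89, 11.64, 11.44 and 11.75 on day 28. The MIA arrays of each day lay above each intact array. Inhba was 1.46-fold higher on day 2 (0.55 ± 0.14, adjusted p = 0.0077), 2.56-fold higher on day 14 (1.36 ± 0.14, adjusted p = 2.3e-05) and 2.54-fold higher on day 28 (1.34 ± 0.14, adjusted p = 1.6e-05). Inhbb, the subunit gene of activin B, differed by -0.07, 0.02 and 0.14 on the 3 days and did not pass.

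**Figure D2:**
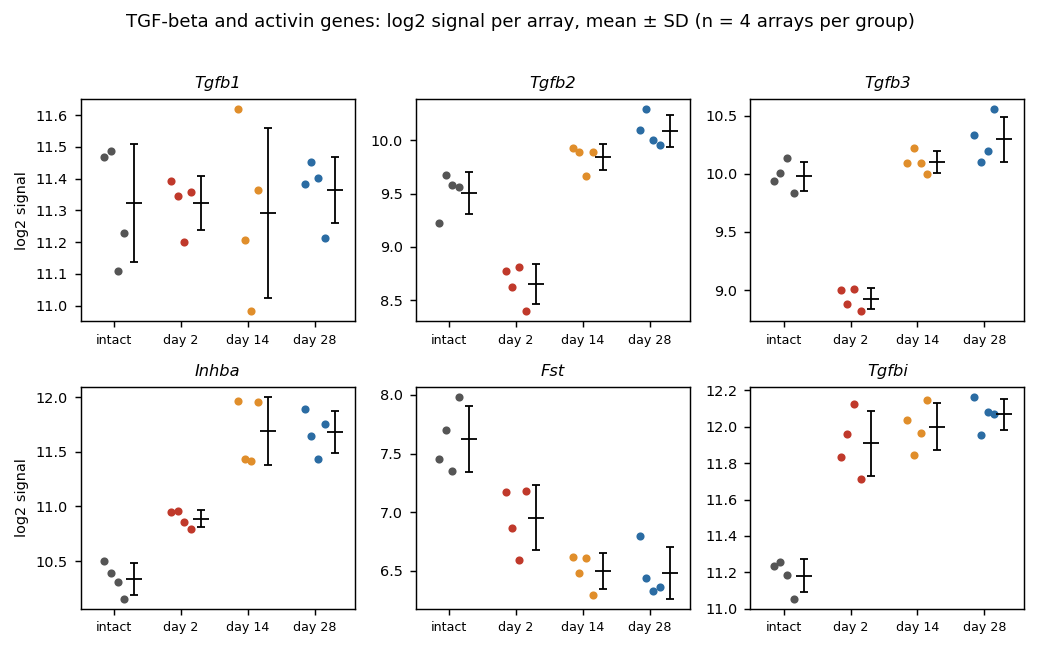
Log2 signal (vertical axis) of 6 TGF-beta/activin genes in each of the 16 arrays by group, with the mean and SD over 4 arrays beside the points. Tgfb2 and Tgfb3 were low on day 2 only, Inhba and Tgfbi were high on each day, Fst was low on each day, and the Tgfb1 groups overlapped.

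Among the receptors of this branch, Tgfbr1 (ALK5), the type I receptor of TGF-beta, was higher on each day, by 0.54 ± 0.11 on day 2 (adjusted p = 0.0013), 0.54 ± 0.11 on day 14 (adjusted p = 0.0029) and 0.71 ± 0.11 on day 28 (adjusted p = 0.00036). Its arrays ranged over 9.87 to 10.15 on day 2, 9.75 to 10.20 on day 14 and 10.07 to 10.29 on day 28, against 9.25 to 9.60 in intact animals. Tgfbr3 (betaglycan), the co-receptor that presents TGF-beta2, was lower by 0.45 ± 0.11 on day 2 (adjusted p = 0.007) and by 0.59 ± 0.11 on day 28 (adjusted p = 0.0022), with -0.27 on day 14 (adjusted p = 0.13). The activin type I receptor Acvr1b (ALK4) was higher by 0.39 ± 0.08 on day 2 (adjusted p = 0.0011) and by 0.25 ± 0.08 on day 14 (adjusted p = 0.036), and its difference on day 28 was 0.10 (adjusted p = 0.48).

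Both activin antagonists were lower on day 2, and they went opposite ways on day 28. Fst (follistatin), which binds and neutralises activins, gave 7.45, 7.70, 7.35 and 7.99 in intact animals, 7.17, 6.87, 6.59 and 7.18 on day 2, 6.62, 6.48, 6.61 and 6.29 on day 14 and 6.80, 6.44, 6.32 and 6.36 on day 28. Each MIA array lay below each intact array. Fst was 1.59-fold lower on day 2 (-0.67 ± 0.16, adjusted p = 0.0058), 2.18-fold lower on day 14 (-1.12 ± 0.16, adjusted p = 0.00032) and 2.21-fold lower on day 28 (-1.14 ± 0.16, adjusted p = 0.00023). Its signal was dim on days 14 and 28, with means of 6.50 and 6.48, below the lowest array median of 6.57. Fstl3, a follistatin-like protein that also binds activins, gave 8.74, 8.35, 8.47 and 8.10 in intact animals, 7.90, 7.94, 7.95 and 8.18 on day 2, 8.34, 8.39, 8.41 and 8.38 on day 14 and 9.04, 9.05, 9.11 and 9.16 on day 28. It was lower on day 2, with overlapping arrays (-0.42 ± 0.11, adjusted p = 0.0093), and higher on day 28, with the arrays apart (0.67 ± 0.11, 1.60-fold, adjusted p = 0.00068).

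The SMADs of this branch moved little. Smad3 was lower on day 2 (-0.38, adjusted p = 0.015), and its differences of -0.21 on day 14 and -0.09 on day 28 did not pass. Smad2 was higher on day 28 (0.25, adjusted p = 0.016), with 0.11 on day 2 and 0.10 on day 14. Tgfbi, a matrix protein first found as a gene induced by TGF-beta, gave 11.24, 11.26, 11.18 and 11.06 in intact animals, 11.84, 11.96, 12.13 and 11.71 on day 2, 12.04, 11.84, 11.97 and 12.15 on day 14 and 12.17, 11.96, 12.08 and 12.07 on day 28. Every MIA array lay above every intact array. It was 1.65-fold higher on day 2 (0.73 ± 0.10, adjusted p = 4.8e-05), 1.76-fold on day 14 (0.82 ± 0.10, adjusted p = 7.1e-05) and 1.85-fold on day 28 (0.89 ± 0.10, adjusted p = 2.5e-05). Macrophages express Tgfbi as well, and 7 of 11 macrophage markers were higher on day 2, with mean log2 levels of 9.89 to 10.24 per array on day 2 against 9.26 to 9.46 in intact animals. On day 28 the range was 8.99 to 9.27, with 3 of the 11 markers higher (Cd68, 0.81, Cd14, 0.57, and Csf1r, 0.35) and 2 lower (Cd163, -2.46, and C1qc, -0.51). The part of these markers in the Tgfbi results was not tested.

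In the BMP branch all 7 measured ligands had negative differences on each day, and Bmp4, Bmp5 and Bmp6 passed the test on all 3 days. Of the 7, 3 were lower on day 2, 5 on day 14 and 3 on day 28, and none was higher. These are 42.9%, 71.4% and 42.9%, against 11.2%, 6.01% and 6.45% lower of all probe sets. Bmp4, which drives cartilage and bone formation, gave 9.89, 10.22, 10.16 and 10.11 in intact animals, 9.01, 8.93, 8.63 and 8.88 on day 2, 9.57, 9.40, 9.35 and 9.16 on day 14 and 9.31, 9.09, 9.14 and 9.47 on day 28. Each MIA array lay below each intact array. Bmp4 was 2.35-fold lower on day 2 (-1.23 ± 0.12, adjusted p = 2.6e-06), 1.65-fold lower on day 14 (-0.72 ± 0.12, adjusted p = 0.00068) and 1.79-fold lower on day 28 (-0.84 ± 0.12, adjusted p = 0.00019).

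Bmp5, a ligand known for skeletal patterning in mice, gave 8.83, 9.07, 9.11 and 8.57 in intact animals, 7.74, 7.70, 7.70 and 7.40 on day 2, 8.18, 8.23, 8.58 and 8.43 on day 14 and 8.28, 8.26, 8.56 and 8.66 on day 28. The day 2 arrays stood clear of the intact ones, and those of days 14 and 28 overlapped them. Bmp5 was 2.39-fold lower on day 2 (-1.26 ± 0.14, adjusted p = 1e-05), and lower by 0.54 ± 0.14 on day 14 (adjusted p = 0.016) and by 0.45 ± 0.14 on day 28 (adjusted p = 0.039). The day 14 call was lost without replicate 1 of day 14 (adjusted p = 0.052), and the day 28 call without replicate 2 of day 2, replicates 1 or 2 of day 28 or replicates 1, 2 or 3 of the intact group (adjusted p up to 0.12).

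Bmp6, a close relative of Bmp5 and Bmp7 that is also made by hypertrophic chondrocytes, fell more than any other ligand among the 43 genes on day 2. Its signals were 9.24, 9.36, 9.41 and 9.03 in intact animals, 7.54, 7.53, 7.32 and 7.97 on day 2, 8.00, 8.02, 7.80 and 7.68 on day 14 and 8.17, 8.35, 7.88 and 8.08 on day 28. The highest MIA array, 8.35, lay well under the lowest intact array, 9.03. Bmp6 was 3.18-fold lower on day 2 (-1.67 ± 0.14, adjusted p = 1e-06), 2.61-fold lower on day 14 (-1.38 ± 0.14, adjusted p = 2.3e-05) and 2.20-fold lower on day 28 (-1.14 ± 0.14, adjusted p = 7.5e-05).

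The other ligands gave smaller differences. Bmp2, known for inducing bone, was lower on day 14 (-0.47 ± 0.14, adjusted p = 0.038), with -0.35 on day 2 (adjusted p = 0.087) and -0.22 on day 28 (adjusted p = 0.39). Bmp7 was likewise lower on day 14 (-0.42 ± 0.13, adjusted p = 0.047), with -0.38 on day 2 (adjusted p = 0.051) and -0.12 on day 28 (adjusted p = 0.68). Bmp3, a ligand that acts against bone formation, had wide spread and did not pass (-0.44, -0.76 and -0.24 on the 3 days), its day 28 arrays running over 6.64 to 8.46. Gdf6, a ligand of joint formation, had -0.36, -0.24 and -0.12 and did not pass.

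**Figure D3:**
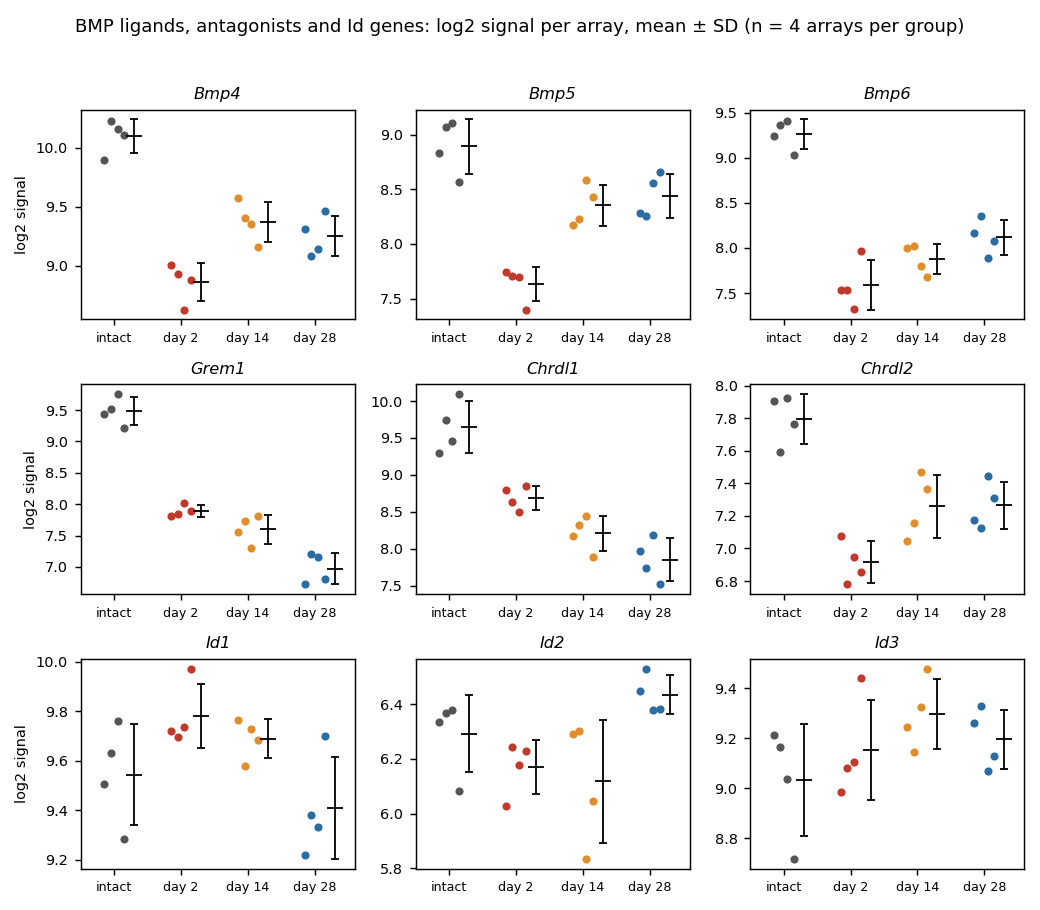
Log2 signal (vertical axis) of 3 BMP ligands, 3 BMP antagonists and Id1, Id2 and Id3 in each of the 16 arrays by group, with the mean and SD over 4 arrays beside the points. Bmp4, Bmp6, Grem1, Chrdl1 and Chrdl2 lay below the intact arrays on each day, and the MIA groups of Id1, Id2 and Id3 overlapped the intact arrays.

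The secreted BMP antagonists were lower together with the ligands on day 2, when all 5 passed, and 3 of the 5 were lower on days 14 and 28. Of all probe sets 11.2%, 6.01% and 6.45% were lower on the 3 days. Grem1 (gremlin 1), which binds BMP2 and BMP4, gave 9.44, 9.52, 9.76 and 9.21 in intact animals, 7.81, 7.84, 8.03 and 7.89 on day 2, 7.56, 7.73, 7.30 and 7.82 on day 14 and 6.72, 7.20, 7.16 and 6.80 on day 28. Each MIA array lay more than 1 log2 unit below each intact array. Grem1 was 3.01-fold lower on day 2 (-1.59 ± 0.14, adjusted p = 1.6e-06), 3.69-fold lower on day 14 (-1.88 ± 0.14, adjusted p = 2.6e-06) and 5.70-fold lower on day 28 (-2.51 ± 0.14, adjusted p = 7.7e-08). The last is the largest difference among the 43 genes. Chrdl1 (chordin-like 1), another antagonist of BMP4, gave 9.30, 9.74, 9.46 and 10.10 in intact animals, 8.79, 8.63, 8.50 and 8.86 on day 2, 8.17, 8.32, 8.45 and 7.89 on day 14 and 7.97, 7.74, 8.18 and 7.52 on day 28. Its MIA arrays lay below the intact arrays on each day. Chrdl1 was 1.94-fold lower on day 2 (-0.96 ± 0.18, adjusted p = 0.00091), 2.72-fold lower on day 14 (-1.44 ± 0.18, adjusted p = 1e-04) and 3.48-fold lower on day 28 (-1.80 ± 0.18, adjusted p = 1.2e-05).

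Grem1 and Chrdl1 were lower on day 28 than on day 2, by 0.92 ± 0.14 (adjusted p = 0.00021) and 0.84 ± 0.18 (adjusted p = 0.0028), and fat cell markers moved in the same order. Of 11 fat cell markers 10 were lower on day 2 and 11 on days 14 and 28. Their mean log2 level per array was 9.82 to 10.72 in intact animals, 9.10 to 9.48 on day 2, 8.51 to 8.98 on day 14 and 7.19 to 7.60 on day 28. The part of the fat cell markers in these results was not tested. Chrdl2 (chordin-like 2), known from cartilage, was instead lowest on day 2, with 7.08, 6.78, 6.95 and 6.85, against 7.90, 7.59, 7.92 and 7.77 in intact animals. Its difference was -0.88 ± 0.11 on day 2 (adjusted p = 3.6e-05), -0.54 ± 0.11 on day 14 (adjusted p = 0.0045) and -0.53 ± 0.11 on day 28 (adjusted p = 0.0048). Chrd (chordin) was lower on day 2 only (-0.51 ± 0.06, adjusted p = 3.3e-05), with 0.09 on day 14 and 0.13 on day 28. Nog (noggin) was likewise lower on day 2 (-0.33 ± 0.08, adjusted p = 0.0079), and its differences of -0.25 on day 14 (adjusted p = 0.059) and -0.13 on day 28 (adjusted p = 0.37) did not pass.

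Of the 4 measured BMP receptors 3 were lower on day 2 (75%, against 11.2% of all probe sets), and none was lower on day 14 or day 28. Acvr1 (ALK2), a type I receptor, had closely spaced arrays, 8.85 to 8.87 on day 2 against 9.49 to 9.64 in intact animals. It was lower by 0.71 ± 0.06 on day 2 (adjusted p = 1.7e-06) and higher by 0.25 ± 0.06 on day 28 (adjusted p = 0.015), with 0.18 on day 14 (adjusted p = 0.064). Bmpr1a (ALK3) was lower by 0.56 ± 0.09 on day 2 (adjusted p = 0.00035) and Bmpr2, the type II receptor of BMPs, by 0.40 ± 0.06 (adjusted p = 0.00017). Their differences lay between -0.11 and 0.07 on days 14 and 28. Bmpr1b (ALK6), the receptor used by GDF5 in joint formation, was higher on day 14 only (0.42, adjusted p = 0.033).

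Of the SMADs that carry the BMP signal, Smad5 was lower on day 2 (-0.26, adjusted p = 0.0098), and Smad1 (-0.30, adjusted p = 0.068) and Smad9 (-0.42, adjusted p = 0.092) did not pass. None of the 3 passed on day 14 or day 28. The inhibitory Smad6 was lower by 0.48 ± 0.09 on day 2 (adjusted p = 0.0013) and by 0.39 ± 0.09 on day 14 (adjusted p = 0.01), and Smad7, which inhibits both branches, by 0.51 ± 0.09 (adjusted p = 0.00042) and 0.35 ± 0.09 (adjusted p = 0.013). Neither passed on day 28, with -0.19 for Smad6 and -0.06 for Smad7.

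The Id genes are immediate targets of BMP signalling that encode inhibitors of bHLH transcription factors. Id1, Id2 and Id3 did not pass against intact animals on any day, whereas Id4, which is not among the 43 genes, was lower on each day. The signal of Id2 was dim, with a mean of 6.25 over the 16 arrays, below the lowest array median of 6.57. Id1 gave 9.50, 9.63, 9.76 and 9.28 in intact animals, 9.72, 9.70, 9.74 and 9.97 on day 2, 9.76, 9.58, 9.73 and 9.68 on day 14 and 9.22, 9.38, 9.33 and 9.70 on day 28. Its difference was 0.24 on day 2 (95% confidence interval -0.01 to 0.48), 0.14 on day 14 (-0.10 to 0.39) and -0.14 on day 28 (-0.38 to 0.11). Id2 gave 6.34, 6.37, 6.38 and 6.08 in intact animals, 6.03, 6.24, 6.18 and 6.23 on day 2, 6.29, 6.30, 5.83 and 6.04 on day 14 and 6.45, 6.53, 6.38 and 6.38 on day 28. Its difference was -0.12 on day 2 (-0.35 to 0.10), -0.17 on day 14 (-0.40 to 0.05) and 0.14 on day 28 (-0.08 to 0.37). Id3 gave 9.21, 9.17, 9.04 and 8.72 in intact animals, 8.99, 9.08, 9.11 and 9.44 on day 2, 9.24, 9.15, 9.32 and 9.48 on day 14 and 9.26, 9.33, 9.07 and 9.13 on day 28. Its difference was 0.12 on day 2 (-0.14 to 0.38), 0.27 on day 14 (0.00 to 0.53, adjusted p = 0.17) and 0.16 on day 28 (-0.10 to 0.43). For each of these 3 genes the arrays of each MIA day overlapped the intact ones, while the day 28 arrays of Id2 lay above those of day 2 and day 14 (adjusted p = 0.089 and 0.26). Id4, named after its values were seen, gave 7.93, 7.81, 7.92 and 8.12 in intact animals, 6.72, 6.90, 6.85 and 7.03 on day 2, 7.34, 7.05, 7.13 and 7.16 on day 14 and 7.42, 7.54, 7.32 and 7.53 on day 28. Each MIA array of Id4 lay below each intact array. Id4 was lower by 1.07 ± 0.09 on day 2 (adjusted p = 1.4e-06), by 0.77 ± 0.09 on day 14 (adjusted p = 9.1e-05) and by 0.49 ± 0.09 on day 28 (adjusted p = 0.0025).

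Of the 7 genes of both or neither branch, Fstl1, a secreted follistatin-like glycoprotein of fibroblasts, was higher by 0.38 ± 0.09 on day 14 (adjusted p = 0.011) and by 0.46 ± 0.09 on day 28 (adjusted p = 0.0031), with -0.04 on day 2. Of 11 synovial and fibroblast markers 5 were higher on day 14 and 6 on day 28. On day 2, when Fstl1 differed by -0.04, 2 of these markers were higher and 5 were lower. Mean log2 levels per array were 11.29 to 11.67 on day 2, 12.00 to 12.08 on day 14 and 11.95 to 12.10 on day 28. In intact animals they were 11.61 to 11.68. The part of these markers in the Fstl1 result was not tested. Acvrl1 (ALK1), a receptor mainly of endothelial cells, was lower on day 2 (-0.33, adjusted p = 0.02), and of 8 endothelial markers 1 was higher and 2 were lower on that day, with mean levels of 9.55 to 9.91 on day 2 against 9.83 to 10.01 in intact animals. The activin type II receptor Acvr2a was lower on day 28 (-0.32, adjusted p = 0.032). Acvr2b, the decoy receptor Bambi and the stress-induced ligand Gdf15 did not pass on any day.

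Set side by side, the branches gave the following. On day 2, 4 of 13 TGF-beta/activin genes were higher and 6 were lower (30.8% and 46.2%, median difference -0.07). Of 23 BMP genes 0 were higher and 13 were lower (0% and 56.5%, median -0.42), against 14.7% and 11.2% of all probe sets. On day 14, 4 TGF-beta/activin genes were higher and 1 was lower (30.8% and 7.69%, median 0.10). In the BMP branch 1 gene was higher and 9 were lower (4.35% and 39.1%, median -0.25), against 9.13% and 6.01% of all probe sets. On day 28, 7 TGF-beta/activin genes were higher and 2 were lower (53.8% and 15.4%, median 0.25). In the BMP branch 1 gene was higher and 6 were lower (4.35% and 26.1%, median -0.13), against 7.76% and 6.45% of all probe sets. The BMP median per array ran over -0.56 to -0.31 on day 2, -0.36 to -0.17 on day 14 and -0.16 to 0.01 on day 28, against -0.14 to 0.09 in intact animals, so those of days 2 and 14 did not overlap those of intact animals and those of day 28 did. The TGF-beta/activin median ran over -0.14 to 0.04 on day 2, 0.10 to 0.13 on day 14 and 0.14 to 0.28 on day 28, against -0.10 to 0.07 in intact animals. The TGF-beta/activin median of day 14 was 0.0249 after cyclic loess scaling, that of day 2 was 0.0044 without replicate 1 of the intact group, and the BMP median of day 28 was -0.06 without replicate 1 of day 28. Since the genes of a branch were chosen and assigned with results of these data known, no test was made on these medians, and the difference between the branches was not tested.

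**Figure D4:**
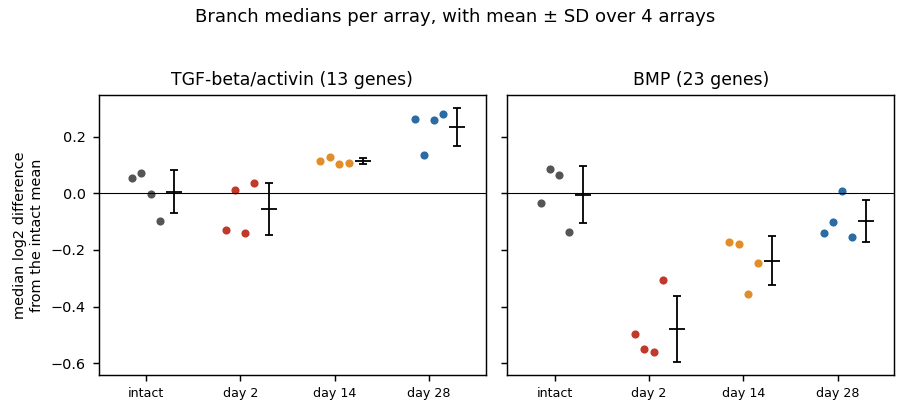
Median log2 difference from the mean of the intact arrays (vertical axis) over the 13 TGF-beta/activin genes and the 23 BMP genes in each of the 16 arrays, with the mean and SD over 4 arrays. The BMP medians of days 2 and 14 lay below the intact arrays, and the TGF-beta/activin medians of days 14 and 28 lay above them.

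Between the MIA days, most of the movement fell between day 2 and day 14. On day 14, 13 of the 43 genes were higher than on day 2 and none was lower (6.71% and 7.83% of all probe sets). The largest of these were Tgfb2 (1.19 ± 0.12, adjusted p = 7.8e-06), Tgfb3 (1.17 ± 0.10, adjusted p = 2.4e-06) and Acvr1 (0.89 ± 0.06, adjusted p = 5.9e-07). Of 20 skeletal muscle markers 3 were also called higher on day 14 than on day 2, but all 20 had positive differences, with a median of 2.12. Their mean log2 level per array was 6.74 to 8.86 on day 2 and 8.91 to 11.67 on day 14, without overlap. A muscle covariate and the day can thus not be fully told apart in this comparison. With the mean of the muscle markers as a covariate 9 of the 43 genes were higher, with that of marrow markers 10, and none was lower. Without dim probe sets 14 were higher and 2 were lower. The shares of all probe sets were not counted under these alternatives. Between day 28 and day 14 Fstl3 alone passed (0.71 ± 0.11, adjusted p = 0.008), against 0.188% higher and 0.273% lower of all probe sets, and Grem1 (-0.63) passed as well with dim probe sets left out or with the trend and robust options of limma. On day 28, 18 genes were higher than on day 2 and 5 were lower (10.4% and 12.2% of all probe sets). The 5 lower ones were Acvr1b, Fst, Chrdl1, Grem1 and Id1. For Id1, -0.37 ± 0.12 (adjusted p = 0.03) was the only passing difference of Id1, Id2 or Id3 between any of the groups compared, and its arrays overlapped. Id4 was higher on day 14 than on day 2 (0.29 ± 0.09, adjusted p = 0.048) and on day 28 than on day 2 (0.58 ± 0.09, adjusted p = 0.00035).

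Genes of the same pathway beyond the 43 were counted from 3 further lists. Of 28 measured ligands and antagonists, 2 were higher and 9 lower on day 2 (7.14% and 32.1%, against 14.7% and 11.2% of all probe sets), 3 and 4 on day 14 (10.7% and 14.3%, against 9.13% and 6.01%), and 4 and 2 on day 28 (14.3% and 7.14%, against 7.76% and 6.45%). The shares higher on day 14 and lower on day 28 were thus near those of all probe sets. Gdf10 (BMP3B), a close relative of Bmp3, was lower by 1.88 on day 2 (adjusted p = 1.1e-07), 1.10 on day 14 (adjusted p = 4e-05) and 1.22 on day 28 (adjusted p = 1.2e-05). Lrg1, a secreted modulator of TGF-beta signalling in endothelial cells, had -0.41, -0.66 and -1.26 (adjusted p = 0.011, 0.00073 and 3.1e-06). Nbl1 (DAN), a BMP antagonist, was lower on day 2 (-1.15, adjusted p = 0.00016) and higher on day 28 (0.87, adjusted p = 0.0035), with 0.44 on day 14 (adjusted p = 0.11). Its turn in direction resembled that of Fstl3.

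Of 23 measured receptors and transducers, 3 were higher and 8 lower on day 2 (13.0% and 34.8%, against 14.7% and 11.2% of all probe sets). On day 14 these were 3 and 4 (13.0% and 17.4%, against 9.13% and 6.01%), and on day 28 4 and 5 (17.4% and 21.7%, against 7.76% and 6.45%). The share higher on day 2 was thus near that of all probe sets. Acvr1c (ALK7), a type I receptor of nodal and activins that adipocytes express, was lower by 1.29, 1.84 and 2.57 on the 3 days (adjusted p = 0.0015, 0.00027 and 1.3e-05), in the same order as the fat cell markers above. Itgb8, an integrin subunit that releases active TGF-beta from its latent complex, was lower by 1.57 on day 2 (adjusted p = 2.4e-06), 0.75 on day 14 (adjusted p = 0.0029) and 0.60 on day 28 (adjusted p = 0.011). Of 14 measured target genes, Id4 among them, 0 were higher and 7 lower on day 2 (0% and 50%, against 14.7% and 11.2% of all probe sets). On day 14 these were 3 and 4 (21.4% and 28.6%, against 9.13% and 6.01%), and on day 28 4 and 2 (28.6% and 14.3%, against 7.76% and 6.45%). Ccn2 (CTGF), a matrix protein induced by TGF-beta, was lower on day 2 (-1.21, adjusted p = 2.2e-05) and day 14 (-0.55, adjusted p = 0.019), with -0.12 on day 28. Dlx5, a homeobox gene induced by BMPs in bone cells, was lower on day 2 (-1.15, adjusted p = 0.00015) and day 14 (-0.77, adjusted p = 0.0077), with -0.20 on day 28. Ltbp2, a latent TGF-beta binding protein, was higher on day 14 (1.00, adjusted p = 0.0016) and day 28 (1.34, adjusted p = 0.00016), and Postn (periostin) likewise (1.13, adjusted p = 1e-04, and 0.90, adjusted p = 5e-04). Postn also stands in the list of fibroblast markers. On day 2 these were 0.38 for Ltbp2 (adjusted p = 0.14) and -0.36 for Postn (adjusted p = 0.076).

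The tissue itself changed over the same days, as read from cell type markers. The cartilage genes Acan and Col2a1 had mean log2 signals of 11.46 and 11.91 in intact animals, so that defining markers of the labelled tissue were present, and Adipoq of fat cells had 11.65. Of 18 chondrocyte markers 12 were lower on day 2, 9 on day 14 and 5 on day 28, and none was higher. Their mean log2 level per array was 9.03 to 9.53 in intact animals, 7.14 to 8.60 on day 2, 7.55 to 8.24 on day 14 and 8.26 to 9.08 on day 28. Bmp4, Bmp5, Bmp6, Chrdl2, Grem1, Chrdl1 and Fst were lower than in intact animals on the same days. Marrow neutrophil and erythroid markers (17 measured) were lower in 0, 5 and 12 genes on the 3 days. Skeletal muscle markers (20 measured) passed in none against intact animals (adjusted p under 0.05). The mean of the muscle markers per array still spread over 7.01 to 10.42 in intact animals, 6.74 to 8.86 on day 2, 8.91 to 11.67 on day 14 and 6.59 to 9.19 on day 28. Osteoblast and osteocyte markers (9 measured) were lower in 1 gene on day 2 and 1 on day 14 and higher in 1 on day 28, and all 11 measured genes of DNA replication and mitosis were higher on day 2. With the mean of the muscle markers as a covariate, 57 of the 60 member calls against intact animals kept their call, and with the marrow markers 48 did. The mean of the marrow markers per array was 9.51 to 9.67 in intact animals and 6.79 to 9.30 on day 28, without overlap. The marrow covariate and the day can thus not be fully told apart on day 28. The 3 lost with the muscle markers were those of Acvr1b, Bmp7 and Bmpr1b on day 14. The 12 lost with the marrow markers were these 3, those of Bmp2, Fstl1 and Smad6 on day 14, and those of Tgfb3, Bmp5, Acvr1, Chrdl2, Smad2 and Fstl1 on day 28. The part of chondrocyte and fat cell markers in the results of the family was not tested.

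**Figure D5:**
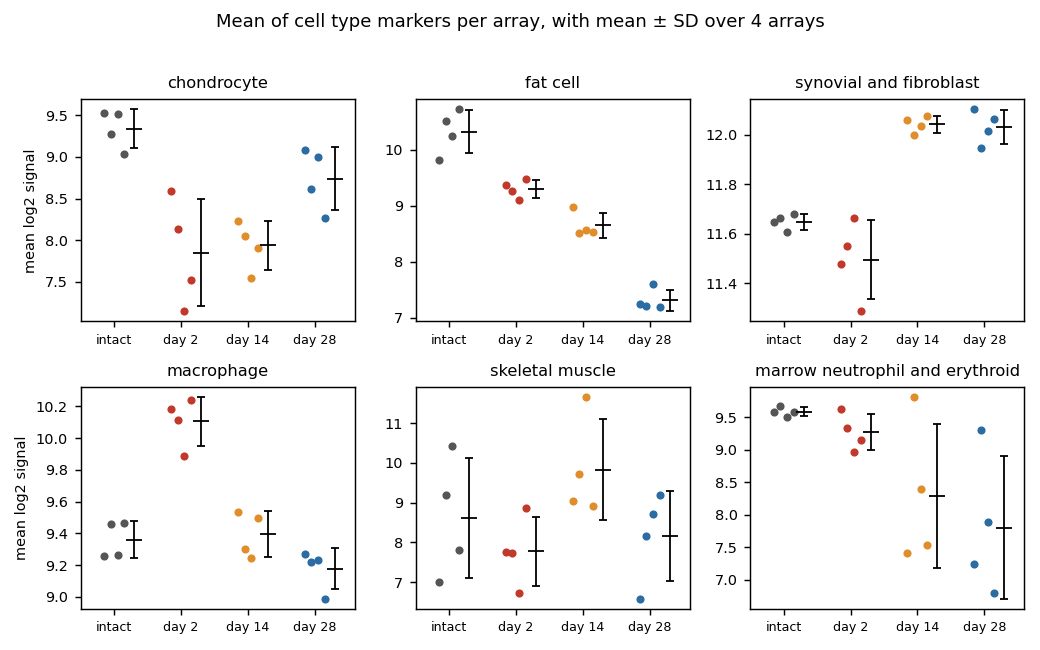
Mean log2 signal (vertical axis) over the measured markers of 6 cell types in each of the 16 arrays by group, with the mean and SD over 4 arrays. Chondrocyte markers were lowest on days 2 and 14, fat cell markers were lower on each day down to day 28, macrophage markers were high on day 2, and muscle and marrow markers differed widely between arrays of a group.

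Of the 60 calls against intact animals 10 were lost when 1 array was left out, those of Tgfb3 and Bmp5 among them. Acvr1b on day 14 was lost without replicates 1, 3 or 4 of day 14 or replicates 1 or 4 of the intact group (adjusted p up to 0.11, difference 0.21 to 0.29 over the 16 fits). Bmpr1b on day 14 was lost without the same 5 arrays (adjusted p up to 0.099, difference 0.32 to 0.51). Acvr2a on day 28 was lost without replicates 1, 2 or 3 of day 28 or replicates 2, 3 or 4 of the intact group (adjusted p up to 0.095, difference -0.39 to -0.27). Bmp2 on day 14 was lost without replicates 2, 3 or 4 of day 14 or of the intact group (adjusted p up to 0.1, difference -0.55 to -0.39). Bmp7 on day 14 was lost without any of 11 arrays (adjusted p up to 0.14, difference -0.49 to -0.30), all but replicate 3 of day 2, replicates 2 and 4 of day 14, replicate 2 of day 28 and replicate 4 of the intact group. Acvrl1 on day 2 was lost without replicates 2 or 3 of day 2 or replicate 3 of the intact group (adjusted p up to 0.061), and Smad3 on day 2 without replicate 4 of day 2 (adjusted p = 0.053). The calls of Bmp4, Bmp6, Grem1, Chrdl1, Fst, Inhba and Tgfbi were kept in each of the 16 fits.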

How the data were processed

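Total RNA of rat knee tissue was measured in 4 groups of 4 arrays, grouped by the sample labels, with replicate numbers from the sample titles. The sample descriptions number the day 2 replicates differently. What the authors deposited are log2 signals, 1 per probe set and array, made per the labels by RMA in oligo 1.36.1 with quantile normalisation between arrays. They ran from 1.60 to 13.84, with array medians of 6.57 to 6.69. The values were used as deposited, without a filter. Arrays have no read depth, so the precision rests on their number.

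In R 4.3.3 with limma 3.58.1, each of 36685 probe sets was fitted over all 16 arrays with the 4 group means as terms, followed by eBayes (prior degrees of freedom 2.86) and Benjamini-Hochberg adjustment across the probe sets. Calls were made at an adjusted p under 0.05, and SE and 95% intervals come from that fit. Plots were drawn in Python 3.11.15 with matplotlib 3.10.9. The code was tested on simulated data. Each array was taken as 1 sample: the labels name 1 animal per array, and pooling of 2 is described in the methods. The p-values measure the spread between these pools.

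The members, branches, pathway lists and marker lists were chosen with earlier results of these data known. Genes described with the value of every array are members with an adjusted p under 0.05 and a change over 2-fold on any day, with the TGF-beta ligands, Id genes and Tgfbi whatever their values. The values of Fstl3, Chrdl2 and Id4 were added after they were seen. Of the further pathway genes, up to 4 per list with the largest change past the same limits are named. Symbols came from the platform annotation, of which 18511 probe sets have 1 symbol, 575 several and 17599 none, and the 43 members were matched to RefSeq gene identifiers. Alternatives covered scaling, dim probe sets, the variance model, the test, the samples in the fit, covariates for muscle and marrow markers, branch assignment and each array left out.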

Additional observations from a re-analysis of the deposited data

Results flagged for a closer look

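In 10 of 172 groups of 4 arrays of a member, the gap between the outermost array and its neighbour, as a share of the group's range, was above Dixon's 95% critical value for 4 samples, a limit that chance passes in about 1 in 20 groups. They were Tgfb2 in replicate 3 of day 14 (9.67, others 9.89 to 9.93), Tgfbr3 in replicate 2 of day 28 (10.17, others 10.51 to 10.53), Bmpr1a in replicate 3 of day 2 (9.50, others 9.02 to 9.11) and Acvr2b in replicate 4 of day 28 (6.23, others 5.95 to 5.98). Replicate 4 of day 2 stood apart for Bmp5 (7.40, others 7.70 to 7.74), Smad9 (7.29, others 6.90 to 6.95), Smad6 (8.38, others 7.96 to 8.01) and Id1 (9.97, others 9.70 to 9.74). Replicate 4 of the intact group stood apart for Id2 (6.08, others 6.34 to 6.38) and Smad7 (7.46, others 7.72 to 7.77).

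The change from intact differed between MIA days for the following members, by the limma test between the days. On day 14 against day 2 it was higher for Tgfb2 (1.19), Tgfb3 (1.17), Acvr1 (0.89), Inhba (0.80), Bmp5 (0.72), Chrd (0.60), Bmp4 (0.51), Bmpr1a (0.45), Fstl1 (0.41), Acvrl1 (0.40), Fstl3 (0.39), Bmpr2 (0.39) and Smad5 (0.26). The adjusted p of these ran from 5.9e-07 for Acvr1 to 0.025 for Fstl3. On day 28 against day 14 it was higher for Fstl3 (0.71, adjusted p = 0.008).

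On day 28 against day 2 it was higher for the ligands Tgfb2 (1.44), Tgfb3 (1.37), Bmp5 (0.80), Inhba (0.79), Bmp6 (0.53) and Bmp4 (0.39), and for the receptors Acvr1 (0.96), Bmpr1a (0.57), Bmpr2 (0.47) and Acvrl1 (0.33). It was also higher for the antagonists Fstl3 (1.09), Chrd (0.65), Fstl1 (0.49) and Chrdl2 (0.35) and for Smad7 (0.45), Smad1 (0.35), Smad6 (0.29) and Smad5 (0.27). It was lower for Grem1 (-0.92), Chrdl1 (-0.84), Fst (-0.47), Id1 (-0.37) and Acvr1b (-0.29). Their adjusted p ran from 1e-07 for Acvr1 to 0.047 for Fst.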

How the results depend on the processing

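Of 60 calls against intact animals 33 were kept with each array left out and under the 10 other alternatives that apply to them, 41 when the methods' t-test is set aside, and none reversed. The methods' t-test lost 22, the fit of only the 2 groups compared 13, the marrow covariate 12, median centring 7, cyclic loess 5 and the muscle covariate 3. Trend and robust options and the mean of probe sets (each member has 1) lost none. Leaving out dim probe sets kept 38 members and lost none of the 58 calls it could assess. The calls of Nog on day 2 and Bmpr1b on day 14 could not be assessed there, as their probe sets were left out. Nog, Gdf6, Id2, Bmpr1b and Acvr2b had mean log2 signals of 5.94 to 6.40 over the 16 arrays, below the lowest array median of 6.57.

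The methods' t-test, taken as Welch's form with Benjamini-Hochberg adjustment at the threshold used for limma, gave 13 members lower on day 2, 2 higher and 6 lower on day 14, and between days 7 (day 14 against 2), 0 (day 28 against 14, where limma without dim probe sets or with trend and robust options gave 2) and 14 (day 28 against 2). At the unadjusted p and fold limits of the methods it gave 0 higher and 2 lower on day 2 (Tgfb3 and Bmp4), 0 and 2 on day 14 (Bmp6 and Grem1), 1 and 1 on day 28 (Inhba and Grem1), and 1, 0 and 2 members between days. The fit of only the 2 groups gave 7 lower on day 14. The marrow covariate gave 3 higher on day 14, 5 higher on day 28 and 15 between days 28 and 2.

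The TGF-beta/activin median of day 14 was 0.0249 with cyclic loess, 0.15 with median centring, 0.0773 with the muscle and 0.0725 with the marrow covariate, 0.0589 with Acvr2a, Acvr2b and Fstl1 counted in, and 0.12 for ligands only. The BMP median of day 14 was -0.42 without dim probe sets and -0.54 for ligands only. On day 28 ligands only gave 0.32 for TGF-beta/activin and -0.24 for BMP. With ligands only, with Acvr2a, Acvr2b and Fstl1 counted in, and without dim probe sets, the median was taken over a different set of genes. The cause of the other shifts was not tested.

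With each array left out in turn, 4 members were higher on day 2 in each fit and 20 to 23 lower, 4 to 7 higher and 9 to 12 lower on day 14, and 8 to 9 higher and 7 to 9 lower on day 28. Between days 12 to 14 (day 14 against 2), 1 (day 28 against 14) and 17 to 23 (day 28 against 2) passed. The TGF-beta/activin median ran over -0.13 to 0.0044, 0.0756 to 0.13 and 0.23 to 0.28 on the 3 days, and the BMP median over -0.51 to -0.40, -0.33 to -0.20 and -0.19 to -0.06.

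The replicate numbers of the sample titles did not pair the arrays (7 of 24 same-number pairs correlated above 0.1, r -0.36 to 0.458, and 4 of 16 arrays matched best to their own number). The numbers of the descriptions, which differ on day 2, were not tried. With the replicate number as a block, 4 members were higher and 22 lower on day 2, 5 and 10 on day 14, and 8 and 8 on day 28, and 56 of the 60 calls were kept.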
